A study of Mus musculus with 4 samples.

Results

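Of the maternal factors measured in these mouse 2-cell embryos, 10 genes are described, Zar1, Zar1l, Ybx2, Lsm14b, Ddx6, Eif4enif1, Eif4e1b, Cpeb1, Dazl and Patl2. Their proteins store maternal mRNA in the egg, silence it or otherwise control its translation. The 10 genes were taken from the deposited table of TPM (transcript abundance) by matching these 10 symbols to Ensembl identifiers. All 10 were among its 30049 genes. TPM gives a gene's reads per transcript length and as a share of its library, so levels of different genes can be compared. The genes were chosen by function with the DMSO against control contrast of these libraries already known, so their fold changes are a description and no test is drawn from them.

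Wild-type zygotes of the background BDF1*BDF1 F2 were taken 18 h after injection of human chorionic gonadotropin and kept for 24 h in the embryo culture medium KSOM. Control embryos received no treatment, and DMSO-treated embryos were cultured in the same medium with 2% dimethyl sulfoxide, a common solvent. At the 2-cell stage 50 embryos were pooled for each group, and RNA was sequenced in 4 libraries, 2 for each group. Where 2 values are given for a group, replicate 1 comes first. Nothing states that the replicates came from separate litters or cultures, so the spread between them may be technical. A pool measures RNA of all its embryos together, and fewer cells of a type and less RNA per cell cannot be told apart.

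A growing oocyte makes far more mRNA than it translates, and RNA-binding proteins hold the surplus in silent particles until meiosis and fertilization. CPEB1 recognizes a U-rich element near the mRNA end, and DDX6, LSM14B, PATL2 and the eIF4E-binding protein 4E-T (gene Eif4enif1) form a repressor around the cap and tail. The Y-box protein YBX2 and the zinc-finger proteins ZAR1 and ZAR1L package the stored mRNA, and DAZL turns on translation of selected messages as the egg matures. Most of the mRNA stored in this way is destroyed by the 2-cell stage, when transcription of the embryo's own genome starts.

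In control embryos the 10 genes spanned from 1.17 to 81.3 TPM in mean level (n = 2). Eif4enif1 and Ybx2 stood at the top and overlapped each other, followed by Zar1l, which lay below both Ybx2 libraries and above both Dazl libraries. Dazl, Eif4e1b, Ddx6, Lsm14b and Cpeb1 followed in this order, and each overlapped its neighbour. Both Cpeb1 libraries lay above both Zar1 libraries, and Patl2 was lowest. In DMSO-treated embryos Ybx2 was alone at the top, Eif4enif1 came next, Dazl and Eif4e1b stood above Zar1l, and Ddx6 took the place above Patl2.

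**Figure D1:**
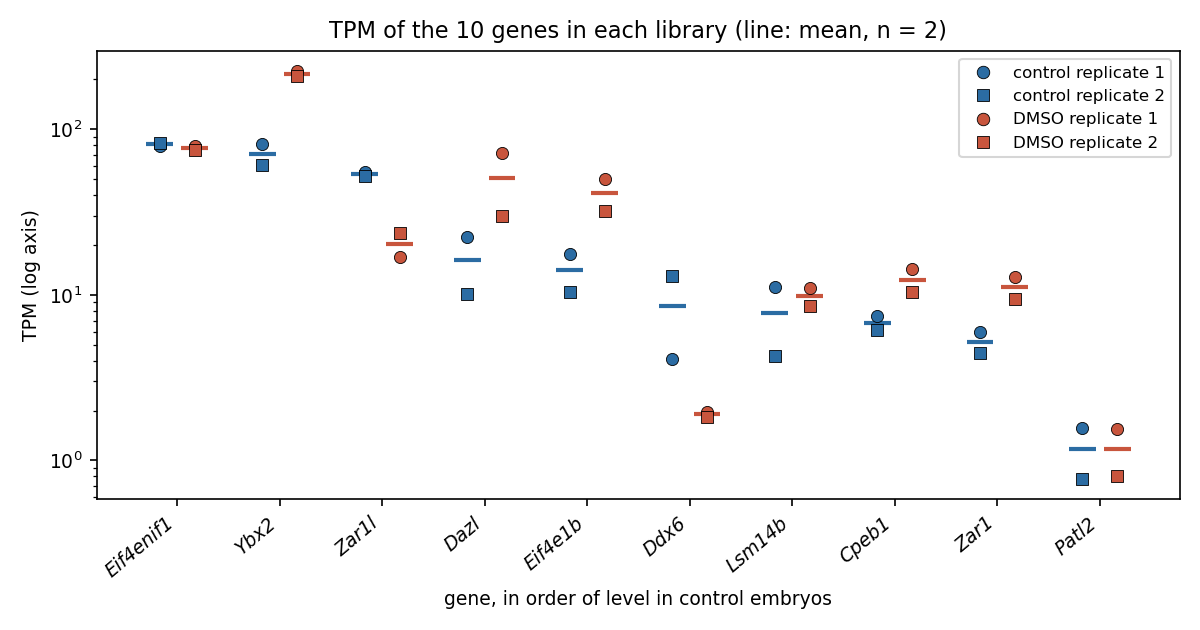
TPM of the 10 genes (log axis) in each of the 4 libraries, ordered by level in control embryos, with circles for replicate 1, squares for replicate 2 and a line at each mean (n = 2). Ybx2, Dazl, Eif4e1b, Cpeb1 and Zar1 lie higher in both DMSO libraries than in both control libraries, and Zar1l, Ddx6 and, by a narrow margin, Eif4enif1 lie lower.

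Summed over the 10 genes, the level was 286 and 245 TPM for control embryos and 484 and 402 TPM for DMSO-treated ones. In 5 genes both DMSO libraries were above both control libraries, in 3 both were below, and 2 overlapped, while among all 12038 genes tested the shares without overlap were 31.1% higher and 38.7% lower, 69.8% in all. Fold changes were computed with limma, a linear model fitted to every gene whose mean level reached 1 TPM, on log2(TPM + 1), which understates the change of low genes. The 10 genes all passed this filter, and their median log2 fold change was 0.59, beside -0.09 over all genes tested. Their median was 0.30 without control replicate 2 and 0.96 without control replicate 1.

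With Benjamini-Hochberg adjustment over all genes, 20.5% of genes were called at an adjusted p-value under 0.05, 6.42% as higher and 14.1% as lower. Of the 10 genes 2 were called higher (Ybx2 and Eif4e1b), 1 lower (Zar1l) and 7 were not called, counts that are given as a description. With no filter 0 of the 10 were called, as were 0 of all genes. With replicate number fitted as a block 5 were called higher and 2 lower, beside 2151 higher and 2981 lower of the 12038 genes tested. The balance of calls over all genes changed with the scaling. On the deposited values 773 were higher and 1697 lower, and with median-ratio scaling 871 and 1363. After quantile normalization, which gives all libraries the same distribution of values, 1076 were higher and 1121 lower. The calls also changed when a library was left out. That leaves 1 library in a group and lowers the precision of the fit, so a lost call does not single out a library. Over these fits the log2 fold change ran from 1.41 to 1.82 for Ybx2, from 1.13 to 1.86 for Eif4e1b and from -1.61 to -1.15 for Zar1l. Without control replicate 1, control replicate 2 or DMSO replicate 1, limma called 0 of the 12038 genes, with 3745, 2602 and 3078 genes at an unadjusted p-value under 0.05. Without DMSO replicate 2 it called 1883 genes, among them Ybx2, Eif4e1b, Dazl and Zar1l. With 2 libraries against 2, the smallest p-value that an exact two-sided permutation test allows for any gene is 0.33.

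**Figure D2:**
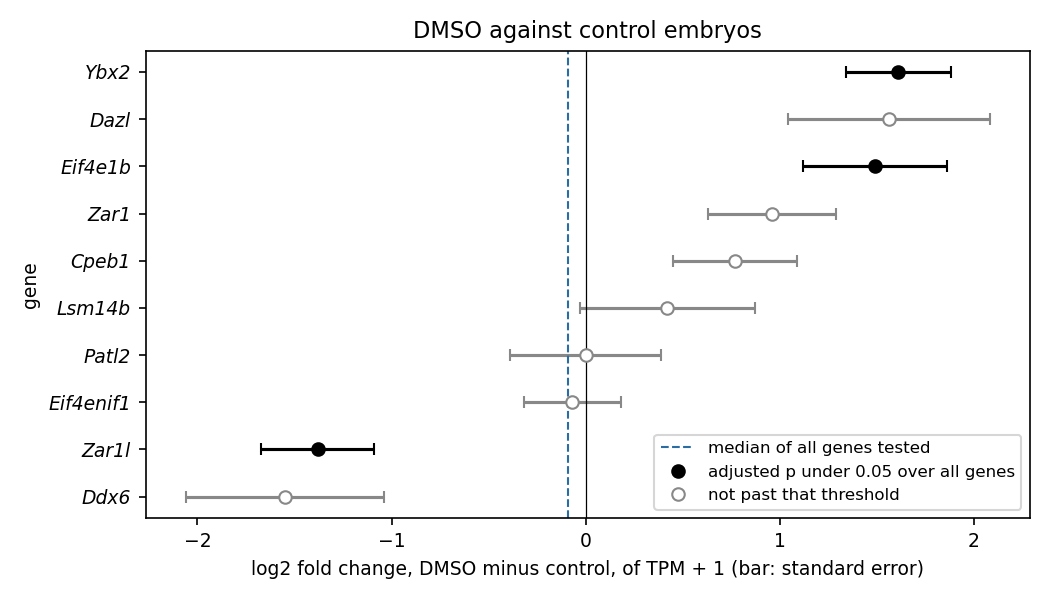
Log2 fold change (DMSO minus control, of TPM + 1) of the 10 genes with its standard error from limma, filled where the adjusted p-value over all genes was under 0.05. Values run from -1.55 for Ddx6 to 1.61 for Ybx2, and the dashed line marks the median of all genes tested, -0.09.

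Among the proteins that package stored mRNA, Ybx2 (ENSMUSG00000018554, chromosome 11 of GRCm38 from 69935796 to 69941605 in the GENCODE M21 annotation) encodes the germ cell Y-box protein, an abundant coat of maternal mRNA. It read 81.1 and 60.8 TPM in control embryos against 225 and 209.8 TPM after DMSO. Its mean level was 3.06-fold that of control embryos, with a log2 fold change of 1.61 (standard error 0.27). The groups lay far apart, and Ybx2 ranked in the top 14.5% of genes tested by level in control embryos and in the top 3.89% after DMSO.

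Zar1 and Zar1l encode related proteins with a zinc finger at the end of the chain, through which they bind RNA. Zar1 (ENSMUSG00000063935, chromosome 5 from 72576806 to 72581254) measured 5.96 and 4.48 TPM without DMSO and 12.9 and 9.45 TPM with it, a log2 fold change of 0.96 (standard error 0.33). Zar1l (ENSMUSG00000056586, chromosome 5 from 150507055 to 150518164) reached 55.2 and 51.9 TPM in control embryos, beside 16.9 and 23.5 TPM in DMSO-treated ones, a log2 fold change of -1.38 (standard error 0.29). Zar1 was thus higher and Zar1l lower in both DMSO libraries, each without overlap. Zar1 made up 9.74% and 7.95% of the pair's TPM in control embryos and 43.2% and 28.7% in DMSO-treated embryos. Of the 31-base words of the Zar1 transcripts 41.4% are found in those of other genes too, and kallisto, which the authors used, splits reads that share such words by an estimate, so the level of Zar1 is uncertain. No word of the Zar1l transcripts is shared.

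The stretch before the Zar1l start is shown because Zar1l was the only one of the 10 called lower, together with that of Ybx2, which was called higher. Both are RefSeq sequences of GRCm38.p6, written 5′ to 3′ and ending before the most upstream start in RefSeq or GENCODE, Zar1l on the minus strand at chr5:150518165-150518409 and Ybx2 on the plus strand at chr11:69935649-69935795. For Ybx2 the first RefSeq start, 69935899, lies downstream of the printed stretch. Capitals mark TAATTG on either strand, the letters bound by the oocyte homeobox factor NOBOX.
Zar1l: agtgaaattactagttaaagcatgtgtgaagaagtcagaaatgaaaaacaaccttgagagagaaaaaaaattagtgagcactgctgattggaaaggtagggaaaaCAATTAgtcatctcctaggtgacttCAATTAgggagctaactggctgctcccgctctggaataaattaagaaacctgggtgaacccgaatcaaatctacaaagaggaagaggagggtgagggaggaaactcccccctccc
Ybx2: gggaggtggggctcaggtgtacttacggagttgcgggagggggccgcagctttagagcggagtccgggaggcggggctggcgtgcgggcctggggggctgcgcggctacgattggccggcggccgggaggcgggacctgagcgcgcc

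The Zar1l stretch holds TAATTG at 2 places, both read on the opposite strand as CAATTA. Over 250 bases before the start, 7.17% of 32851 RefSeq promoters hold these letters and 0.511% hold them more than once. Both strands were also searched for CACGTG, an E-box, and GCGGGAA, an E2F motif, which 6.02% and 3.82% of promoters hold. Neither stands in the promoters of 8 of the 10 genes. CCAAT, the letters of the CCAAT box, stands on either strand at 6 of the 12 listed starts of these 8 genes, in 6 of the 8, beside 33.8% of all promoters. Those of Ddx6 and Eif4e1b were not analysed here. Zar1l also had the lowest density of the dinucleotide CpG among the 8 genes, 0.179 of that expected from its base composition, at the 26.7th percentile of all promoters. The other 7 genes lay between 0.37 (Patl2) and 1.02. A match of letters is a description of the sequence, and binding was not measured.

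Of the proteins that repress at the cap and the P-body, Eif4enif1 (ENSMUSG00000020454, chromosome 11 from 3202392 to 3244588), whose product binds eIF4E and keeps it from the translation machinery, varied least. It stood at 79.4 and 83.2 TPM in untreated embryos and 78.8 and 75.5 TPM under DMSO. The log2 fold change was -0.07 (standard error 0.25), with both DMSO libraries narrowly below both control libraries. This fold change turned to 0.22 after quantile normalization, which moved the median of all genes to 0.01. No direction of change is drawn from the order of the libraries. Eif4e1b (ENSMUSG00000074895, chromosome 13 from 54783998 to 54788459), the cap-binding eIF4E form of oocytes, read 17.8 and 10.3 TPM in control embryos against 50.1 and 32.04 TPM after DMSO. The change was 1.49 on the log2 scale (standard error 0.37), and 11.9% of its 31-base words are shared with other genes.

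Ddx6 (ENSMUSG00000032097, chromosome 9 from 44604892 to 44640731) encodes the RNA helicase at the core of P-bodies, the cytoplasmic granules of silent mRNA. It measured 4.10 and 12.99 TPM without DMSO and 1.96 and 1.83 TPM with it. Both DMSO libraries were lower, but the control libraries differed from each other more than control replicate 1 did from either DMSO library. The log2 fold change was -1.55 (standard error 0.51), and it was -0.82 without control replicate 2 and -2.27 without control replicate 1.

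Lsm14b and Patl2 encode partners of DDX6 in the oocyte. Lsm14b (ENSMUSG00000039108, chromosome 2 from 180024987 to 180035465) reached 11.2 and 4.27 TPM in control embryos, beside 10.99 and 8.60 TPM in DMSO-treated ones. Its groups overlapped, and its log2 fold change of 0.42 (standard error 0.45) became -0.19 without control replicate 2. Patl2 (ENSMUSG00000027233, chromosome 2 from 122120108 to 122186189) stood at 1.57 and 0.775 TPM in untreated embryos and 1.54 and 0.802 TPM under DMSO. Replicate 1 was the higher library of both groups for each of these genes, and Patl2 stood among the lowest genes tested, with a mean of 1.17 TPM in each group.

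The remaining genes, Dazl and Cpeb1, act on chosen messages. Dazl (ENSMUSG00000010592, chromosome 17 from 50279395 to 50293636) read 22.2 and 10.2 TPM in control embryos against 72.1 and 29.98 TPM after DMSO. Its mean level was 3.15-fold that of control embryos, but the spread within each group was wide and the log2 fold change of 1.56 had a standard error of 0.52. It was 0.94 without DMSO replicate 1 and 2.18 without DMSO replicate 2. Cpeb1 (ENSMUSG00000025586, chromosome 7 from 81347026 to 81455465) measured 7.46 and 6.15 TPM without DMSO and 14.4 and 10.4 TPM with it, a log2 fold change of 0.77 (standard error 0.32). In both genes the DMSO libraries lay above the control libraries. Neither gene was called in the fit of all 4 libraries with group as the only term. Both were called when replicate number was fitted as a block as well.

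CPEB1 binds the cytoplasmic polyadenylation element, whose letters were searched as TTTTAT or TTTTAAT on the transcript strand in the last 150 bases of 1 GENCODE transcript per gene. TTTTAAT can overlap the polyadenylation signal AATAAA. Only Ybx2 of the 10 genes held the element there, beside 23.4% of the 10715 tested genes with a transcript, while 9 of the 10 held AATAAA or ATTAAA in the last 40 bases, beside 75.3%. Ybx2 was the exception, so 0 of the 10 held both. Among 17 mRNAs listed as stored in the oocyte and activated later, 10 held the element and 9 of these a signal as well, the exception being Btg4. These 17 were listed by function, so no comparison of their count with all genes is drawn. Elements further upstream or in other transcripts of a gene were not searched, for the 10 genes as for these. The site of Ybx2 is shown with the sites nearest to the transcript end in Ccnb1, a classical CPEB1 target, and in Btg4 and Spin1, which were called higher, each as 30 bases with the element in capitals.
Ybx2 (chr11:69941534-69941563, plus strand): tctgaagccaTTTTATgaactgtcatgtgc
Ccnb1 (chr13:100778774-100778803, minus strand): tcatttgctgTTTTAATttatacatctgat
Btg4 (chr9:51119799-51119828, plus strand): ataaatccctTTTTATgtctttttaaaagt
Spin1 (chr13:51152475-51152504, plus strand): tgtaagtaatTTTTATaattatgatgtaac

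Over all tested genes the median log2 fold change was 0.02 for the 2504 genes with the element in this window and -0.13 for the 8211 without it, a difference that was not tested, genes not being independent replicates. The libraries were made from the poly(A) tail, so the values are of RNA with a tail long enough to be primed.

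Each germ cell gene has relatives, several of them expressed in many tissues, and these were set beside it. The somatic Y-box gene Ybx1 reached 553 and 575 TPM in control embryos, beside 383 and 468 TPM in DMSO-treated ones, which is -0.41 on the log2 scale (limma adjusted p = 0.244). Ybx2 made up 12.8% and 9.56% of the pair's TPM in control embryos and 37.0% and 30.9% in DMSO-treated embryos. Ybx3 stood at 14.6 and 23.2 TPM in untreated embryos and 16.4 and 17.7 TPM under DMSO, with overlap.

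Among the relatives of Eif4e1b, Eif4e2, a cap-binding form that represses translation, fell from 175 and 168 TPM to 33.0 and 48.4 TPM, lower in both DMSO libraries (log2 fold change of -2.07 with a standard error of 0.29, limma adjusted p = 0.0181, range over alternatives 0.00269 to 0.155). Eif4e3 rose from 68.1 and 52.3 TPM to 154 and 115 TPM, higher in both DMSO libraries (1.15 on the log2 scale with a standard error of 0.29, limma adjusted p = 0.0389, range 0.00567 to 0.247). Eif4e1b therefore held 9.20% and 5.81% of its pair with Eif4e2 in control embryos and 60.3% and 39.9% in DMSO-treated embryos, while its share beside Eif4e3 was 20.7% and 16.5% in control embryos and 24.5% and 21.8% in DMSO-treated embryos. The general cap-binding gene Eif4e was not analysed here.

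Of the relatives of Cpeb1, which bind related elements, Cpeb2 fell from 9.48 and 12.7 TPM to 1.14 and 2.34 TPM, lower in both DMSO libraries (log2 fold change of -2.16 with a standard error of 0.37, limma adjusted p = 0.0216, range over alternatives 0.00319 to 0.16). Cpeb3, at 5.93 TPM in each library without DMSO and at 4.01 and 3.54 TPM with it, was not called. Cpeb4 was the most abundant of the family in both groups, at 41.5 and 40.8 TPM without DMSO and 50.4 and 39.1 TPM with it, with overlap. Cpeb1 made up 44.0% and 32.7% of its pair with Cpeb2 in control embryos and 92.6% and 81.7% in DMSO-treated embryos.

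Patl1, the broadly expressed relative of Patl2, read 7.35 and 7.25 TPM in control embryos against 14.2 and 9.03 TPM after DMSO, above Patl2 in all 4. Lsm14a was below Lsm14b in every library, at 4.11 and 0.501 TPM without DMSO and 7.93 and 2.60 TPM with it, and its log2 fold change ran from 0.15 without control replicate 2 to 1.92 without control replicate 1. Boll, the other member of the Dazl family listed, was at most 1.14 TPM in any library and was not tested. Of the 9 relatives tested 1 was called higher and 2 lower. Ratios of the 10 genes to their relatives were not tested, and several of them share a gene and its values.

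**Figure D3:**
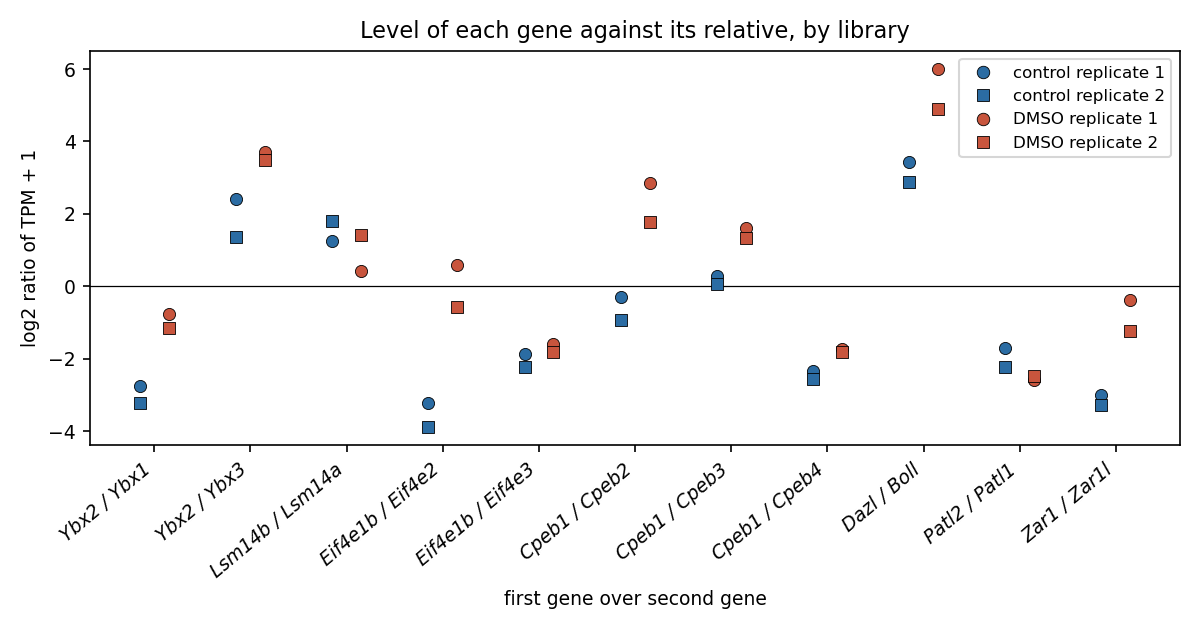
Log2 ratio of TPM + 1 of each gene over its relative in each of the 4 libraries, with circles for replicate 1 and squares for replicate 2. The mean log2 ratio under DMSO minus that of control embryos runs from 3.57 for Eif4e1b over Eif4e2 and 2.93 for Cpeb1 over Cpeb2 to -0.57 for Patl2 over Patl1 and -0.61 for Lsm14b over Lsm14a. Cpeb1, Ybx2 and Eif4e1b each enter several ratios, and Boll is near 0 TPM.

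Genes of a list of other repressors of maternal mRNA and further mRNA-binding proteins, named other repressors below, moved both ways. Of 28 tested, 2 were called higher and 6 lower, with a median log2 fold change of 0.02. The RNA-binding genes Rbpms2 (1.12, limma adjusted p = 0.0326) and Elavl2 (0.97, limma adjusted p = 0.0488) rose in both DMSO libraries. Among the 6 that fell, Nanos3, a germ cell repressor, changed by -1.73 (limma adjusted p = 0.0382), Igf2bp2, an mRNA-stabilizing protein, by -1.70 (limma adjusted p = 0.0247) and Gigyf2, the partner of the Eif4e2 product, by -0.97 (limma adjusted p = 0.0408) on the log2 scale. Igf2bp1 and Caprin1, at -1.36 and -1.13, also fell and are named after their values had been seen. Rbpms2, at 103.5 and 93.7 TPM without DMSO and 239 and 193 TPM with it, was close in level to Ybx2.

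In the machinery that lengthens and covers the poly(A) tail, 2 of 18 genes were called higher and 3 lower, with a median of -0.26. The oocyte poly(A)-binding gene Pabpc1l rose from 6.46 and 2.73 TPM to 27.8 and 14.4 TPM (log2 fold change 2.00, limma adjusted p = 0.0345), and Pabpn1l, likewise of oocytes, from 3.59 and 2.95 TPM to 8.24 and 10.8 TPM (1.29, limma adjusted p = 0.0393). Pabpc1, the general counterpart of Pabpc1l, fell from 381 and 459 TPM to 148 and 245 TPM (-1.13, limma adjusted p = 0.0493). Pabpn1, that of Pabpn1l, was not called, with 2233 and 2419 TPM in control embryos and 2224 and 3413 TPM after DMSO, which overlapped. The poly(A) polymerase gene Papola fell by 1.25 on the log2 scale (limma adjusted p = 0.0369), and Cpsf3, the endonuclease of the cleavage complex, by 1.83 (limma adjusted p = 0.0252). Each of the 5 called genes differed in the same direction in both DMSO libraries. Tent2, the cytoplasmic poly(A) polymerase that works with CPEB1, measured 63.0 and 56.6 TPM without DMSO and 85.4 and 70.7 TPM with it, and was not called. Tent2 and Pabpn1 are named after their values had been seen.

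Of 11 decapping and P-body genes 0 were called higher and 2 lower by limma. These were Lsm2 (-1.96, limma adjusted p = 0.0228) and Lsm5 (-1.94, limma adjusted p = 0.035), ring proteins that also serve in splicing, and the words of Lsm5 are shared to 24.5%. The control libraries of Lsm5 lay apart, at 28.1 and 72.8 TPM beside 12.3 and 9.93 TPM after DMSO, and its log2 fold change was -2.62 without control replicate 1 and -1.27 without control replicate 2. Under quantile normalization 2 genes of this list were called higher. Of 16 deadenylation genes, which remove the tail, 1 was called higher and 1 lower. Btg4, the adaptor that brings the deadenylase to maternal mRNA, rose from 813 and 446 TPM to 2207 and 1380 TPM (1.53, limma adjusted p = 0.0385), and the catalytic subunit gene Cnot8 fell by 1.04 (limma adjusted p = 0.0432), each in both DMSO libraries. Of the 17 stored mRNAs 2 rose, Btg4 and Spin1 (1.80, limma adjusted p = 0.0203), and 1 fell, Hprt (-1.34, limma adjusted p = 0.0308), with a median of 0.46. The shares of all genes called, 6.42% higher and 14.1% lower, are the background for these counts. Each call named from these lists was lost under at least 1 alternative, the highest limma adjusted p of a gene running from 0.16 (Spin1) to 0.267 (Pabpc1) and the lowest from 0.00242 (Btg4) to 0.0138 (Pabpn1l). Pabpc1, Papola and Cnot8 also lost their calls with median-ratio scaling and with quantile normalization.

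**Figure D4:**
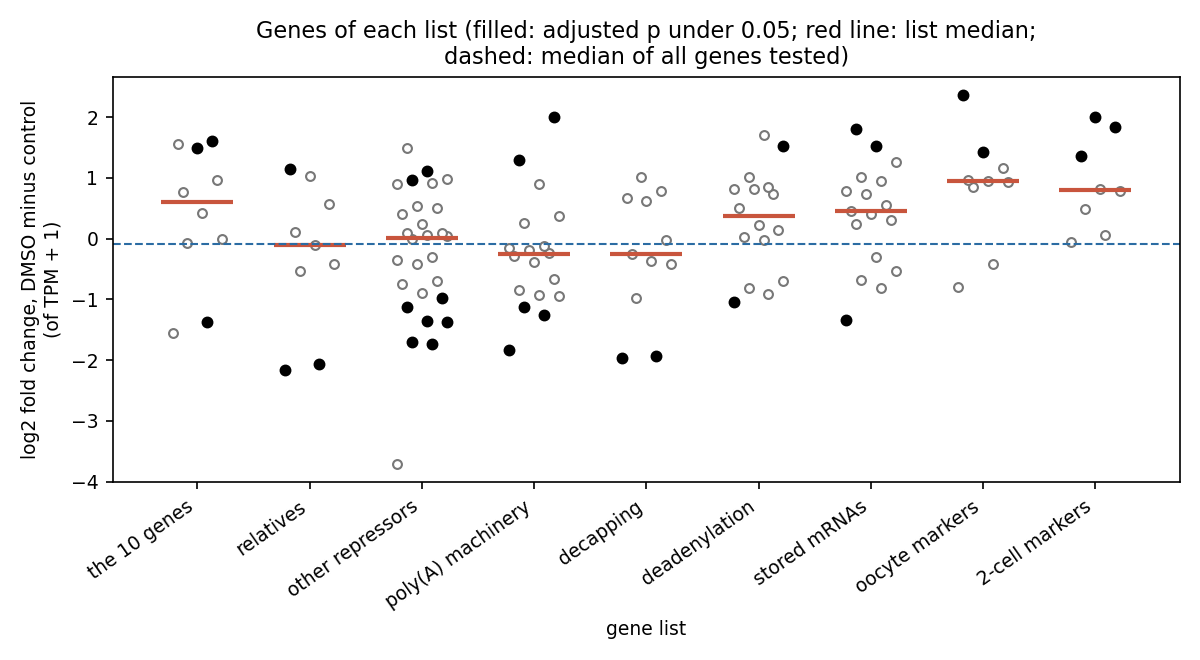
Log2 fold change (DMSO minus control, of TPM + 1) of each tested gene by list, filled where the limma adjusted p-value over all genes was under 0.05, with the list median in red and the median of all genes tested, -0.09, dashed. The 10 genes have a median of 0.59, between the stored mRNAs at 0.46 and the 2-cell markers at 0.80, while the relatives and the decapping genes have medians of -0.11 and -0.25.

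Markers of the stage and of other cells were set beside these values. Of the 2-cell markers Zfp352, Tcstv1 and Tcstv3 were called higher by limma (2.00, 1.84 and 1.36 on the log2 scale, adjusted p = 0.0209, 0.0222 and 0.0281), 3 of 8 tested, and all 3 share words with other genes (from 21.5% to 51.0%). The 9 in the table, led by Tcstv3, summed to 835 and 603 TPM for control embryos and 2305 and 1602 TPM for DMSO-treated ones, with Duxf3 under 1 TPM in all. Of the 8 tested 7 had a log2 fold change above 0, though that of Gm13119 was only 0.06, and Zscan4d stood at -0.05. Of 9 oocyte markers tested, Bmp15 (2.36, limma adjusted p = 0.0221) and Oosp1 (1.43, limma adjusted p = 0.0273) were called higher and 0 lower. The 10 oocyte markers summed to 1143 and 723 TPM for control embryos and 2914 and 2239 TPM for DMSO-treated ones, and Nlrp5 was at or near 0 in all 4. Oosp1 made up most of these sums, at 877 and 576 TPM in control embryos and 2086 and 1763 TPM after DMSO. Of the 9 tested 7 had a log2 fold change above 0, while Zp3 (-0.42) and Padi6 (-0.80) went the other way and were not called. The sums of oocyte and 2-cell markers were thus higher in both DMSO libraries, as were Ybx2 and Eif4e1b, and their part in those values was not tested.

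Cumulus and granulosa markers were near 0. The 10 of them summed to 2.78 and 1.73 TPM for control embryos and 4.52 and 3.14 TPM for DMSO-treated ones. By mean level Tnfaip6 was highest in control embryos (0.871 TPM) and Cyp11a1 after DMSO (1.53 TPM). Amh and Inhba were at 0 throughout. The 8 sperm markers summed to 41.9 and 17.2 TPM for control embryos and 93.5 and 43.5 TPM for DMSO-treated ones. Odf2 made up most of these sums, at 38.5 and 13.4 TPM in control embryos and 79.2 and 33.8 TPM after DMSO. Its groups overlapped and it was not called, so the sums say little of the other sperm markers. Prm1, a defining sperm gene, was under 1 TPM in every library and Tnp2 at 0, while Prm2 and Tnp1 were called higher by limma (1.39 and 1.35, adjusted p = 0.0408 and 0.0429) with highest levels of 11.04 and 2.08 TPM.

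The genes with the profile nearest to the extremes of the 10 were found among 5667 genes whose mean level reached 10 TPM, by Euclidean distance of log2(TPM + 1) over the 4 libraries after centring each gene. Nearest to Ybx2 were Gpr50 (distance 0.0943), which reached 10.7 and 7.22 TPM in control embryos, beside 31.6 and 27.9 TPM in DMSO-treated ones, Gm11331 (0.141) and Gm21818 (0.173). Nearest to Ddx6 were Commd6 (0.335), Tax1bp1 (0.335) and the pseudogene Rpl3-ps1 (0.338). In Commd6, as in Ddx6, control replicate 2 was the high library, at 58.5 TPM beside 28.7 TPM in control replicate 1 and 14.3 TPM in each DMSO library. Gm11331, Gm21818 and Rpl3-ps1 share from 53.5% to 97.4% of their words with other genes and are uncertain.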

How the data were processed

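Libraries were made with an oligo-dT-primed low-input kit from pooled embryos. The authors quantified reads with kallisto on the Ensembl GRCm38 transcriptome, summed transcripts per gene with tximport, and deposited TPM values, 1 column per library. The kallisto version is not given in the sources used here. TPM keeps no depth, so the depth of each library is unknown and no counting interval was derived. The listed genes summed to 768174 and 780527 TPM in the control libraries and to 772487 and 799166 TPM in the DMSO libraries.

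Symbols were matched for 29589 of the 30049 genes from GENCODE M21 names (GRCm38). Values of log2(TPM + 1) of every gene whose mean reached 1 TPM were fitted by limma (version 3.58.1, R 4.3.3, trend on the mean, group as the term, Benjamini-Hochberg adjustment). Tables were made with Python 3.11.15 and pandas 2.3.3. The 10 genes and all lists were chosen by function with earlier results of these data known. Named genes were all 10, their relatives, and in each other list the called genes (the 3 highest and 3 lowest at most). 1 gene of these, counted in its list, is not reported here. Words of 31 bases were counted on both strands over GENCODE M21 transcripts. For the element search the transcript of the best APPRIS level, then the longest, was used. Where promoters had several starts, all were searched. Alternatives were a pseudocount of 0.1, no filter, a mean minimum of 5 TPM, no trend, median-ratio scaling, quantile normalization, a replicate block, and leaving out each library.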

Additional observations from a re-analysis of the deposited data

How the results depend on the processing

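TPM keeps no depth, so what a deeper library would show cannot be said, and 2 libraries a group limit the precision of every value. When a library was left out, the lone library of its group was assumed to vary like the other group.

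With every gene above 0 TPM kept (22257 genes), limma called 0 genes, although 5368 had an unadjusted p-value under 0.05, and so 0 of the 10 genes and 0 of each list. The cause was not tested. Without a trend, with a pseudocount of 0.1, with a mean of at least 5 TPM, with median-ratio scaling and with quantile normalization the calls among the 10 genes remained Ybx2, Eif4e1b and Zar1l. A replicate block raised the number of genes called to 5132, with 2151 higher and 2981 lower. Among the 10 genes it called 5 higher (Zar1, Ybx2, Eif4e1b, Cpeb1 and Dazl) and 2 lower (Zar1l and Ddx6). Same-numbered libraries deviated together from their group means (r = 0.354 across genes, which are not independent replicates), but the labels do not state that a number marks a shared litter or day. Under the block the relatives had 2 called higher, other repressors 6 higher and 9 lower, the poly(A) machinery 3 higher and 5 lower, decapping 3 higher, deadenylation 5 higher, and stored mRNAs 7 higher and 3 lower.

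Other list counts changed as well. Without a trend, relatives, other repressors and deadenylation had 0 called higher, deadenylation 0 lower, and the poly(A) machinery 1 lower and stored mRNAs 1 higher. A pseudocount of 0.1 left 1 other repressor higher. With a mean of at least 5 TPM the poly(A) machinery had 5 lower and stored mRNAs 2 lower. With median-ratio scaling the poly(A) machinery and decapping had 1 lower and deadenylation 0. With quantile normalization the poly(A) machinery had 1 lower, decapping and deadenylation 2 higher, deadenylation 0 lower, and stored mRNAs 5 higher and 0 lower. Other repressors called lower numbered 5 without a trend and with median-ratio scaling, 4 with quantile normalization and 7 with the minimum of 5 TPM. The poly(A) machinery had 2 lower with the pseudocount of 0.1, and stored mRNAs 3 higher with a mean of at least 5 TPM or median-ratio scaling. Oocyte markers called higher numbered 4 under quantile normalization and 7 under the block, 2-cell markers 5 under the block, and sperm markers 1 with a pseudocount of 0.1 or a mean of at least 5 TPM. Of the genes named in the lists, Btg4, Cnot8, Eif4e3, Elavl2, Gigyf2, Pabpc1, Papola and Rbpms2 lost their calls without a trend, Elavl2, Pabpc1 and Tnp1 with the pseudocount of 0.1, Cnot8, Lsm5, Nanos3, Pabpc1 and Papola with median-ratio scaling, and Cnot8, Gigyf2, Hprt, Pabpc1 and Papola with quantile normalization. The log2 fold changes of Eif4enif1 and Ybx3 turned to 0.22 and 0.06 under quantile normalization. The cause of these changes was not tested.

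Leaving out each library in turn gave from 0 to 1883 genes called, from 0 to 3 of the 10 genes higher and from 0 to 1 lower, and a median of the 10 genes from 0.30 to 0.96. The log2 fold change ran from -0.19 to 1.02 for Lsm14b, from -0.43 to 0.21 for Ybx3 and from -0.07 to 0.29 for Cpeb4. List counts ran from 0 to at most 2, except for 2-cell markers called higher, which ran from 0 to 4. Of the 10 genes, Zar1, Zar1l, Ybx2, Ddx6, Eif4e1b, Cpeb1 and Dazl kept their direction under all these alternatives, unlike Lsm14b, Eif4enif1 and Patl2.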
